A study of Danio rerio with 4 samples.

Results

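The genes described here encode the proteins of the cytosolic ribosome. Members were every gene in the count tables whose zebrafish symbol, in any case, begins with *rps*, *rpl* or *rplp* followed by a number, together with *rpsa*. The 11 genes of the *rps6k* kinases and names marked as pseudogenes were left out. The rule gave 85 of 32520 genes, of which 37 belong to the small subunit and 46 to the large subunit including its stalk. The other 2 genes, *rps19bp1* and *rpl7l1*, carry the name of a ribosomal protein but are not standard components of the mature ribosome, and they stayed in the family by the rule. The data were RNA-seq counts of endothelial cells that carried *kdrl:EGFP* and were sorted from ventricles at 7 days post-amputation (dpa), in 2 DNK and 2 CtrlK libraries. DNK fish carried the responder ubi:loxp-DsRed-STOP-loxp-DN-xBrg1, in which a stop cassette holds back the dominant-negative protein until Cre removes it, together with kdrl:CreER and the reporter kdrl:eGFP, and CtrlK siblings had the responder and the reporter without kdrl:CreER. Per the labels, fish of both groups received 4-hydroxytamoxifen (4-HT) for 3 days ahead of the amputation (the study's methods describe a bath 3 days before it), so the drug is shared by both groups, whereas CreER itself was present in DNK fish only. The *kdrl* promoter drives both the recombinase and the sorting reporter, the dominant-negative protein is that of the *Xenopus* Brg1 chromatin remodeler, and hearts were pooled for sorting. The fish were adults, males and females were used in the study, and the sex and exact age of the fish behind each library were not given in the sources used here.

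Cytosolic ribosomes are built from ribosomal RNA and a set of proteins that are needed in nearly equal numbers, so the genes of the family are commonly expressed as a group. Most of their mRNAs start with a terminal oligopyrimidine (TOP) tract, which lets mTORC1 signaling and the RNA-binding protein Larp1 adjust their translation and stability together. Several members also have roles outside the ribosome or a second gene copy whose expression differs between tissues. Brg1 is the ATPase of SWI/SNF complexes, which move nucleosomes at promoters, and the comparison of DNK with CtrlK asks how its inhibition in endothelium changes transcripts after cardiac injury.

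Total counts per library lay between 25189862 and 28770727, and 3 counts corresponded to 0.104 to 0.119 CPM (counts scaled to a common library total), a limit that covers counting error only. Levels below are CPM scaled with the TMM factors of edgeR, which ranged between 0.942 and 1.035. Of 17151 genes tested, 723 were higher and 726 were lower in DNK at an adjusted p under 0.05 (edgeR quasi-likelihood F-test, two-sided, Benjamini-Hochberg adjustment over all tested genes), and a gene past this threshold is referred to as called. The edgeR p-values set the group difference against a spread estimated from 2 libraries per group and moderated across all tested genes. They apply to these samples only. Of the endothelial markers listed, 9 were found and none was at 0 in a group, with a summed share of 0.380% and 0.387% of counts in DNK and 0.408% and 0.448% in CtrlK. Cardiomyocyte transcripts were also present, and 10 marker genes summed to 0.139% and 0.0161% in DNK against 1.40% and 0.456% in CtrlK. The endogenous *smarca4a*, which encodes zebrafish Brg1, had 39.5 and 29.5 CPM in DNK and 26.2 and 26.0 CPM in CtrlK. Its log2 fold change of 0.40 ± 0.20 (SE) was not called (edgeR adjusted p = 0.27), and the *Xenopus* transgene itself was not analysed here.

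The ribosomal protein genes took a smaller share of all counts in DNK cells than in CtrlK cells. The summed counts of the 85 members made up 7.12% of the library in DNK1 and 7.03% in DNK2, against 7.33% in CtrlK1 and 7.76% in CtrlK2. Both DNK libraries lay below both CtrlK libraries, with means of 7.08% ± 0.0633 in DNK and 7.55% ± 0.305 in CtrlK (SD, n = 2 each). The difference was -0.469 percentage points, and the exact permutation test over the 4 libraries gave a two-sided p of 0.333, the smallest value that 2 against 2 allows. Without DNK1, DNK2 or CtrlK1 the difference was -0.514, -0.425 or -0.685 points, and without CtrlK2 it was -0.254 points. Counting error was far smaller than the spread between libraries, since the 95% Wilson interval in DNK1 ran between 7.11% and 7.13%. In bulk RNA, fewer cells of a type and less RNA per cell cannot be told apart.

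The size of the gap depended on what else the libraries contained. The 13 genes with symbols that start with *mt-*, which are mitochondrially encoded, took 2.74% and 2.87% of counts in DNK against 7.00% and 4.49% in CtrlK. Any mitochondrially encoded gene without such a symbol was not in this list and stayed in the total when these 13 were taken out. All 13 had negative log2 fold changes, against 51.7% of all tested genes. Of the 13, edgeR called 1 lower (7.69%, against 4.23% of all tested genes) and 0 higher. At an unadjusted p under 0.05 in edgeR, 10 were lower (76.9%, against 12.6%) and 0 higher. The alternative tool DESeq2 called 11 lower (84.6%, against 8.35%) and 0 higher. With these genes taken out of the total, the ribosomal protein share was 7.32% and 7.24% in DNK against 7.88% and 8.13% in CtrlK. That total still held the gene with the highest mean count. This gene took 4.62% and 4.11% of all counts in DNK against 6.92% and 5.36% in CtrlK. With the 100 other genes of highest mean count taken out, this gene among them, the ribosomal protein share was 10.5% and 10.3% in DNK against 11.6% and 11.7% in CtrlK. The groups stayed apart in each case, and the difference was -0.723 and -1.26 percentage points. Part of this widening is arithmetic, since a smaller total raises every share. The mean share in DNK was 0.938 times that in CtrlK over all counts, and 0.910 and 0.892 times after the removals. On the TMM scale the members summed to 68806 and 69171 CPM in DNK against 77822 and 76943 CPM in CtrlK, a ratio of 0.892.

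**Figure D1:**
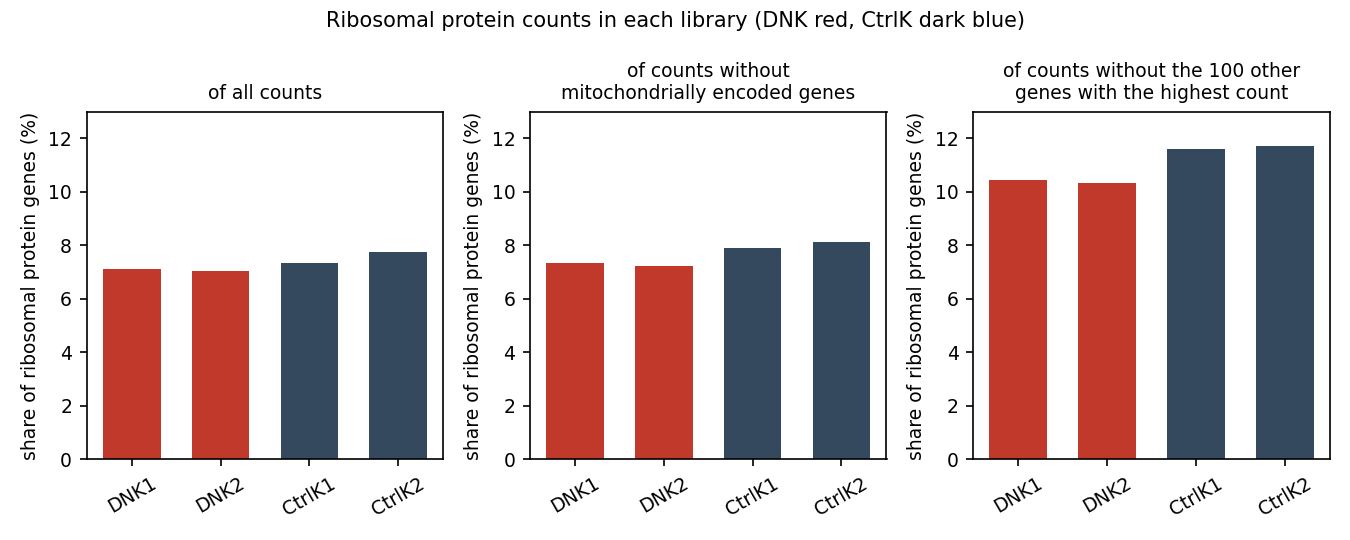
Share of counts (%) taken by the 85 ribosomal protein genes in each of the 4 libraries, DNK in red and CtrlK in dark blue. The total was all counts (left), counts without the *mt-* genes (middle) or counts without the 100 other genes of highest mean count (right). Each bar is 1 library, and both DNK bars are lower than both CtrlK bars in all 3 panels, with 7.12% and 7.03% in DNK against 7.33% and 7.76% in CtrlK over all counts.

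Both subunits showed the difference to a similar extent. Small subunit genes took 3.15% and 3.11% of counts in DNK against 3.27% and 3.44% in CtrlK. Large subunit genes took 3.96% and 3.92% in DNK against 4.05% and 4.32% in CtrlK. The small subunit contributed 44.3% and 44.2% of the family's counts in DNK and 44.6% and 44.3% in CtrlK, so the balance between the subunits moved by -0.258 percentage points. The 5 members with the most counts, *rps2*, *rpl3*, *rpl4*, *rpl19* and *rpsa*, together held 19.1% and 20.7% of the family's counts in DNK and 18.9% and 19.1% in CtrlK. These shares are not corrected for transcript length and do not rank the genes by number of transcripts.

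At the level of single genes, the family was shifted to lower values as a body, with small changes for most members. Of the 83 members that passed the filter on low counts, 10 were called lower in DNK, where 4.23% of all tested genes were, and none was called higher, where 4.22% of all tested genes were. At p under 0.05 without adjustment, 46 members were lower and 2 were higher, against 12.6% and 11.3% of all tested genes. A negative log2 fold change of any size was found for 77 of the 83 members and for 51.7% of all tested genes, and a positive one for 6 members and for 48.3% of all tested genes. Both DNK libraries lay below both CtrlK libraries for 71 of 83 members, against 28.6% of all tested genes, and above them for 5 members, against 26.9%. The shares of all tested genes were not matched to the members for count level. Members measured in the same 4 libraries are also not independent of each other. The median log2 fold change of the members was -0.17, which corresponds to 11.3% less RNA at the TMM scale, whereas the median of all tested genes was -0.02.

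Most members changed by little, but not all by the same amount. For the 80 members with a mean of at least 1000 counts, log2 fold changes ranged between -0.94 and 0.53. For the 77 members with a mean of at least 5000 counts, they ranged between -0.45 and 0.27, and 73 were negative. Standard errors of these 77 were 0.0575 to 0.103. The log2 ratio between replicate libraries had an SD over members of 0.0906 in DNK and 0.0502 in CtrlK, while the difference between the group means had a larger SD of 0.120. The small subunit had a median of -0.17 with 5 of 36 tested genes called lower, and the large subunit had a median of -0.18 with 5 of 45 called lower.

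The number of called members depended on the scaling, the tool and single libraries. With total counts in place of TMM, the median of the members was -0.10 beside 0.05 for all tested genes, 1 member was called lower (*rpl22l1*) and 1 was called higher (*rpl7l1*), against 3.6% and 4.69% of all tested genes. On that scale both DNK libraries lay below both CtrlK libraries for 49 members, against 24.6% of all tested genes, and above them for 8, against 30.9%. A change of scaling moves the log2 fold changes of all genes by about the same amount, so the distance of -0.15 between the median of the members and that of all genes is fixed by construction across scalings and is no sign of stability. DESeq2, the tool of the study, called 27 members lower, including all 10 that edgeR called, and 2 higher (*rpl29* and *rpl7l1*), against 8.35% and 7.41% of all tested genes. With any 1 library left out, a group held 1 library, and edgeR called fewer members and fewer of all tested genes lower. The share of members called lower exceeded that of all tested genes in some of these omissions and not in others. The median of the members stayed between -0.20 and -0.16.

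**Figure D2:**
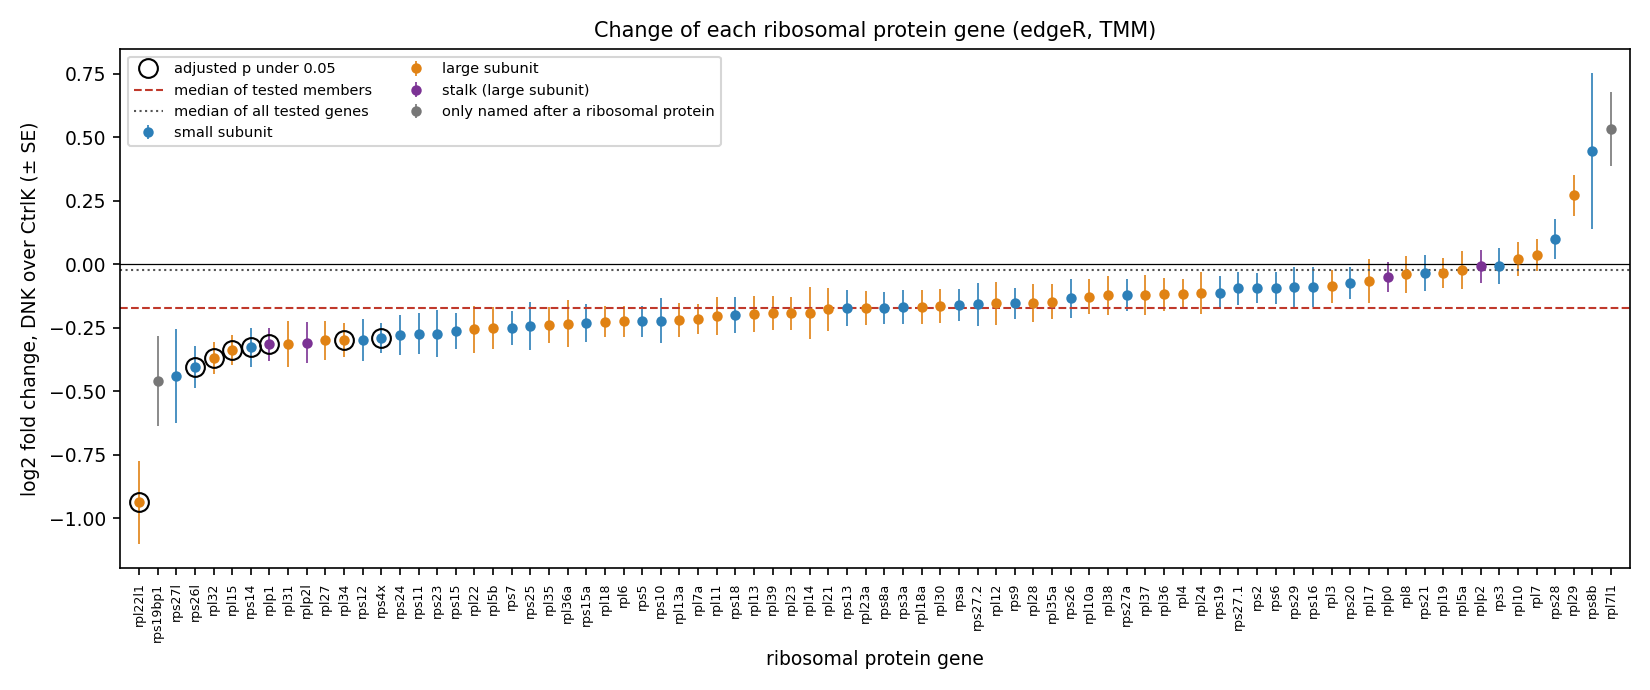
Log2 fold change of DNK over CtrlK (edgeR, TMM, vertical axis, bars are SE) for 80 of the tested members with a mean of at least 100 counts, ordered by value along the horizontal axis and coloured by subunit, with circles around called genes. Most points lie between 0 and -0.45 around the median of the members (dashed, -0.17), below the median of all genes (dotted, -0.02), and *rpl22l1* at -0.94 and *rpl7l1* at 0.53 stand at the ends.

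The lowest called member was *rpl22l1*, which encodes a paralogue of Rpl22 in the large subunit. In mice Rpl22l1 can take the place of a missing Rpl22, and both proteins also bind RNA outside the ribosome. *rpl22l1* had 51.6 and 40.9 CPM in DNK against 96.3 and 80.9 CPM in CtrlK. Both DNK libraries were well below both CtrlK libraries, with a log2 fold change of -0.94 ± 0.16 (SE, edgeR adjusted p = 0.017). The call was lost without DNK2 (-0.78, edgeR adjusted p = 0.075) and without CtrlK1 (-0.80, edgeR adjusted p = 0.093), and it held without DNK1 or CtrlK2. The partner gene *rpl22* had 309.8 and 284.0 CPM in DNK against 370.6 and 338.1 CPM in CtrlK. Its groups did not overlap either, but its change of -0.26 ± 0.093 was not called (edgeR adjusted p = 0.15).

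Small subunit genes called lower included *rps26l*, *rps14* and *rps4x*. *rps26l*, a second gene for Rps26, which contacts the mRNA close to the exit site, had 472.3 and 429.5 CPM in DNK against 584.5 and 607.9 CPM in CtrlK. Its change was -0.40 ± 0.082 (edgeR adjusted p = 0.029). The DNK libraries were both below the CtrlK libraries. With 1 library left out, *rps26l* was called only without DNK1 (edgeR adjusted p = 0.0496, otherwise up to 0.14).

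*rps14* encodes a protein of the platform, and loss of 1 copy of its human gene marks the 5q- syndrome of the bone marrow. It had 951.7 and 853.5 CPM in DNK against 1143 and 1121 CPM in CtrlK, a change of -0.33 ± 0.076 (edgeR adjusted p = 0.044). *rps4x*, the zebrafish counterpart of the X-linked human gene, had 1435 and 1439 CPM in DNK against 1748 and 1767 CPM in CtrlK, a change of -0.29 ± 0.058 (edgeR adjusted p = 0.027). In both genes the DNK libraries were the lower ones. The call for *rps14* was lost in 3 of 9 other settings, and neither gene was called when 1 library was left out (edgeR adjusted p of 0.051 to 0.19 for *rps14* and 0.090 to 0.13 for *rps4x*).

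Large subunit genes called lower besides *rpl22l1* were *rpl32*, *rpl15*, *rpl34* and the stalk gene *rplp1*. *rpl32*, a common reference gene for expression measurements, had 1157 and 1206 CPM in DNK against 1526 and 1527 CPM in CtrlK, a change of -0.37 ± 0.062 (edgeR adjusted p = 0.015). *rpl15*, whose product contacts the RNA of the large subunit, had 1376 and 1383 CPM in DNK against 1778 and 1705 CPM in CtrlK, a change of -0.34 ± 0.060 (edgeR adjusted p = 0.018). The replicates of these genes lay closer to each other than the groups did. With 1 library left out, *rpl32* was called only without DNK2 (edgeR adjusted p = 0.047, otherwise up to 0.083), and *rpl15* was not called (edgeR adjusted p of 0.070 to 0.12). *rpl34*, which was picked after its values were seen, had 727.0 and 738.5 CPM in DNK against 907.7 and 894.3 CPM in CtrlK, a change of -0.30 ± 0.066 (edgeR adjusted p = 0.039, and 0.12 to 0.18 with 1 library left out).

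The ribosomal stalk carries the proteins P0, P1 and P2, which recruit elongation factors to the ribosome, and 1 of its 4 genes was called. *rplp1* had 1088 and 1160 CPM in DNK against 1396 and 1400 CPM in CtrlK, a change of -0.31 ± 0.065 (edgeR adjusted p = 0.031). *rplp0*, the base of the stalk, had 1588 and 1591 CPM in DNK against 1672 and 1620 CPM in CtrlK, a change of -0.05 ± 0.059 (edgeR adjusted p = 0.68). *rplp2* had 883.4 and 871.9 CPM in DNK against 889.7 and 875.6 CPM in CtrlK, a change of -0.01 ± 0.065 (edgeR adjusted p = 0.96). The libraries of *rplp2* overlapped, *rplp1* was not called with 1 library left out (edgeR adjusted p of 0.065 to 0.14), and with total counts as the scale *rplp0* and *rplp2* were at 0.02 and 0.07 without a call. The second P2 gene, *rplp2l*, had 387.3 and 357.6 CPM in DNK against 468.3 and 453.8 CPM in CtrlK. Its change of -0.31 ± 0.082 was not called by edgeR (adjusted p = 0.067) and was called by DESeq2 (adjusted p = 0.0065).

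Besides *rpl22l1* and *rpl22*, other members are known for roles outside protein synthesis or for links to disease or signaling. Those described next were not called by edgeR. Among them, DESeq2 called *rpl5b* and *rpl13a* lower (DESeq2 adjusted p = 0.035 and 0.028). *rpl5* and *rpl11* encode the proteins that, with the 5S RNA, hold back Mdm2 and so stabilise p53 when ribosome assembly fails in mammalian cells. *rpl11* had 581.5 and 626.8 CPM in DNK against 692.1 and 697.7 CPM in CtrlK, a log2 fold change of -0.20 ± 0.075 (edgeR adjusted p = 0.15). Of the 2 genes for Rpl5, *rpl5a* had 392.5 and 400.2 CPM in DNK against 403.8 and 401.2 CPM in CtrlK, a change of -0.02 ± 0.076 (edgeR adjusted p = 0.91) that became 0.05 with total counts as the scale. *rpl5b* had 368.9 and 397.9 CPM in DNK against 461.6 and 450.6 CPM in CtrlK, a change of -0.25 ± 0.081 (edgeR adjusted p = 0.11). The groups did not overlap in these genes, and for *rpl5a* the gap was smaller than the distance between replicates.

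*rpl13a*, whose human product leaves the ribosome to silence inflammatory mRNAs in monocytes, had 875.7 and 834.0 CPM in DNK against 988.9 and 1002 CPM in CtrlK, a change of -0.22 ± 0.067 (edgeR adjusted p = 0.095). *rps19*, whose human counterpart is the gene most often mutated in Diamond-Blackfan anemia, an inherited failure of red cell production, had 994.6 and 978.7 CPM in DNK against 1084 and 1049 CPM in CtrlK, a change of -0.11 ± 0.065 (edgeR adjusted p = 0.35). *rps6*, the substrate of S6 kinase downstream of mTORC1, had 1139 and 1186 CPM in DNK against 1238 and 1242 CPM in CtrlK, a change of -0.09 ± 0.063 (edgeR adjusted p = 0.44). The DNK libraries were the lower ones in all 3 genes. *rps27a*, which is translated as a fusion with ubiquitin, had 1318 and 1270 CPM in DNK against 1440 and 1375 CPM in CtrlK, a change of -0.12 ± 0.064 (edgeR adjusted p = 0.31).

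Against the general shift, 6 tested members had positive log2 fold changes, *rpl7l1*, *rps8b*, *rpl29*, *rps28*, *rpl7* and *rpl10*. None of the 6 was called by edgeR with TMM scaling and the filter on low counts. Without that filter *rpl7l1* was called (0.54, edgeR adjusted p = 0.031). *rpl29* encodes a small basic protein of the large subunit that mice can live without. It had 362.5 and 355.1 CPM in DNK against 299.5 and 295.2 CPM in CtrlK, a change of 0.27 ± 0.079 (edgeR adjusted p = 0.084). *rpl7l1*, related to *rpl7*, had 51.2 and 53.6 CPM in DNK against 38.3 and 34.1 CPM in CtrlK, a change of 0.53 ± 0.15 (edgeR adjusted p = 0.070). Both DNK libraries were above both CtrlK libraries in each gene. *rps28* had 402.9 and 421.2 CPM in DNK against 389.6 and 379.1 CPM in CtrlK, a change of 0.10 ± 0.078 (edgeR adjusted p = 0.51).

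To find members that departed from the family itself, all genes were fitted again with the summed counts of the family as the library size. On this scale the median of the members was -0.01 and 46 of 83 members were negative. *rpl29* and *rpl7l1* were called higher relative to the family, where 7.53% of all tested genes were, with log2 fold changes of 0.44 and 0.70 (edgeR adjusted p = 0.018 and 0.026). *rpl22l1* was called lower, where 3.36% of all tested genes were, with a change of -0.77 (edgeR adjusted p = 0.028). The other 80 tested members were not called on this scale. In shares of the family, *rpl29* held 0.527% and 0.513% of the counts in DNK against 0.385% and 0.384% in CtrlK, and *rpl7l1* held 0.0744% and 0.0775% in DNK against 0.0492% and 0.0443% in CtrlK. *rpl22l1* held 0.0751% and 0.0591% in DNK against 0.124% and 0.105% in CtrlK. Without any 1 library, the adjusted p was 0.072 to 0.077 for *rpl29* and 0.075 to 0.12 for *rpl7l1*. For *rpl22l1* it was 0.039 without DNK1 and 0.055 to 0.13 without DNK2, CtrlK1 or CtrlK2.

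Ratios between related genes within a library are free of any scaling factor, and 11 such pairs were compared, a set put together with the values known. The ratio of *rpl22l1* to *rpl22* counts was 0.167 and 0.144 in DNK against 0.260 and 0.239 in CtrlK. The ratio of *rplp2l* to *rplp2* was 0.438 and 0.410 in DNK against 0.526 and 0.518 in CtrlK. The ratio of *rplp1* to *rplp0* was 0.685 and 0.729 in DNK against 0.835 and 0.865 in CtrlK. In each of these pairs the gene named first made up less of the pair in both DNK libraries than in both CtrlK libraries. The ratio of *rpl5b* to *rpl5a* was 0.940 and 0.994 in DNK against 1.14 and 1.12 in CtrlK, so that *rpl5b* had fewer counts than *rpl5a* in DNK and more in CtrlK. Which copy is *rpl5a* or *rps8a* and which is *rpl5b* or *rps8b* was settled from neighbouring genes in another assembly, and a swap of the names would exchange the values of the copies and invert these ratios. The ratio of *rps26l* to *rps26* was 1.13 and 1.04 in DNK against 1.25 and 1.37 in CtrlK.

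Other pairs moved the opposite way. The ratio of *rpl7l1* to *rpl7* was 0.0496 and 0.050 in DNK against 0.0375 and 0.0332 in CtrlK. The ratio of *rps8b* to *rps8a* was 0.00938 and 0.00802 in DNK against 0.00548 and 0.00585 in CtrlK. Both ratios were higher in DNK without overlap, although *rps8b* itself, at 9.70 and 8.17 CPM in DNK against 6.32 and 6.79 CPM in CtrlK, was not called (0.45 ± 0.31, edgeR adjusted p = 0.44). For 9 of the 11 pairs the groups did not overlap, and the exact permutation test then gave a two-sided p of 0.333, the smallest possible, and 0.407 after adjustment over the 11 pairs. Among these 9 was *rplp2* over *rplp0*, whose mean ratio in DNK was 1.03 times that in CtrlK. For single genes on the TMM scale, the groups did not overlap with DNK below for 28.6% of all tested genes and above for 26.9%. No such share was computed for ratios. Reads that match several places were left out of the counts, so near-identical copies can lose reads and their ratios are uncertain as absolute values.

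**Figure D3:**
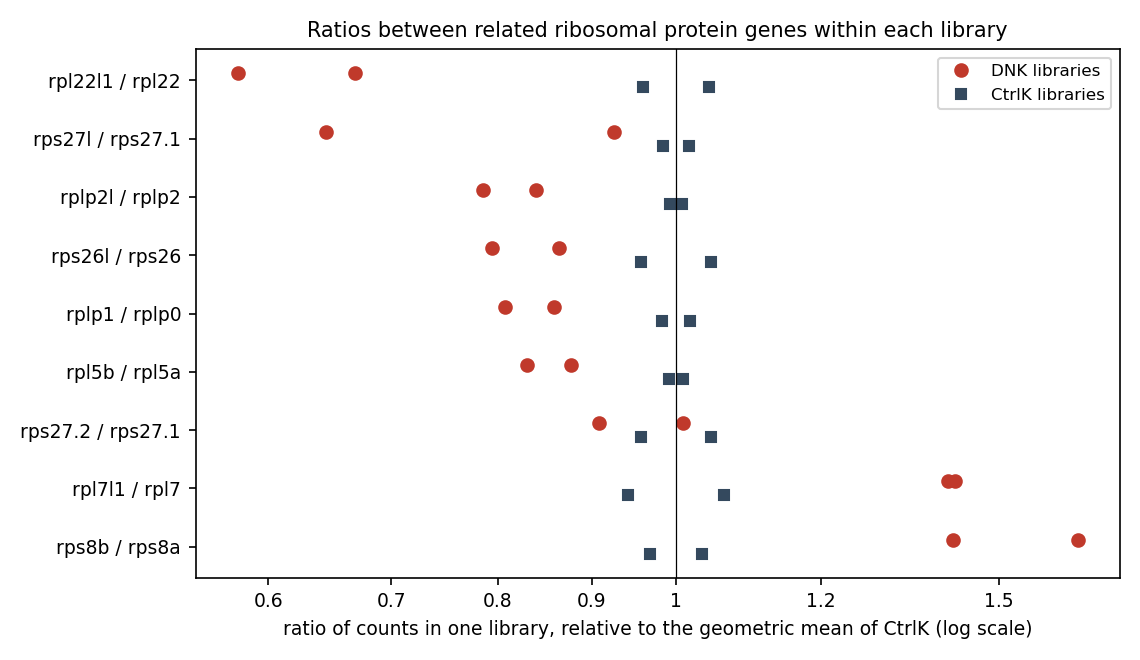
Ratio of counts between 2 related genes within each library, divided by the geometric mean of that ratio in CtrlK (horizontal axis, log scale), for 9 of the 11 pairs, with DNK as red circles and CtrlK as dark blue squares. DNK circles lie to the left of the CtrlK squares for *rpl22l1* over *rpl22* and 5 further pairs, to the right for *rpl7l1* over *rpl7* and *rps8b* over *rps8a*, and partly among them for *rps27.2* over *rps27.1*.

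A few members were hardly detected under their own name. *rpl26* had 1 and 7 counts in DNK against 8 and 12 in CtrlK, and *rps11l* had 6 and 2 counts in DNK against 4 and 4 in CtrlK, and these 2 genes did not pass the filter. *rpl9* had 11 and 12 counts in DNK against 12 and 34 in CtrlK, and its log2 fold change of -1.03 ± 1.06 carried no call (edgeR adjusted p = 0.63). No statement about these 3 genes is possible from so few counts. Of the name-only members, *rps19bp1* had 22.5 and 23.8 CPM in DNK against 33.8 and 29.8 CPM in CtrlK, a change of -0.46 ± 0.18 (edgeR adjusted p = 0.17).

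Other ribosomal proteins have symbols that fall outside the rule. *rack1*, the scaffold protein at the head of the small subunit, had 1319 and 1333 CPM in DNK against 1611 and 1549 CPM in CtrlK, a change of -0.25 ± 0.061 (edgeR adjusted p = 0.049). *faua*, which encodes Rps30 fused to a ubiquitin-like protein, had 524.1 and 484.0 CPM in DNK against 542.1 and 547.1 CPM in CtrlK, a change of -0.11 ± 0.078 (edgeR adjusted p = 0.45). Both had lower levels in both DNK libraries, and *rack1* was called, a call that 5 of 9 other settings kept and none of the 4 omissions of 1 library did.

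The wider list of other genes with TOP mRNAs, which includes these 2, had 26 members in the data, of which 6 were called lower, against 4.23% of all tested genes, and 0 higher. At an unadjusted p under 0.05, 9 were lower, against 12.6% of all tested genes, and 0 higher. DESeq2 called 8 lower, against 8.35% of all tested genes, and 0 higher, and the median log2 fold change was -0.18 beside -0.02 for all tested genes. The called genes were *tpt1*, *eef2b*, *eef1a1l1*, *naca*, *eef1g* and *rack1*. *tpt1*, translationally controlled tumor protein, had 72240 and 70012 counts in DNK against 84204 and 99675 in CtrlK, a change of -0.46 ± 0.055 (edgeR adjusted p = 0.0037). *eef1a1l1*, the elongation factor that brings tRNA to the ribosome, had 126555 and 118073 counts in DNK against 141094 and 162980 in CtrlK, a change of -0.41 ± 0.052 (edgeR adjusted p = 0.0045). Both genes had fewer counts in each DNK library than in either CtrlK library. The list had 3 genes called lower without DNK1, 2 without each of the other libraries and 2 with total counts as the scale.

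Of 68 translation factors tested, 6 were called lower (8.82%, against 4.23% of all tested genes) and 3 higher (4.41%, against 4.22%, a share close to that of all genes), with a median of -0.10. At an unadjusted p under 0.05 in edgeR, 16 were lower (23.5%, against 12.6% of all tested genes) and 12 higher (17.6%, against 11.3%). DESeq2 called 9 lower (13.2%, against 8.35%) and 7 higher (10.3%, against 7.41%). Besides the 3 elongation factors of the TOP list, those called lower by edgeR were *eef2l2* and the eIF3 subunits *eif3c* and *eif3s6ip*, with changes of -1.36, -0.47 and -0.50. Those called higher by edgeR were the initiation factors *eif4a1a*, *eif4e1c* and *eif1*, with changes of 0.66, 0.93 and 0.39. *eif4a1a*, the helicase that unwinds the start of mRNAs, had 12148 and 11647 counts in DNK against 6365 and 7761 in CtrlK (edgeR adjusted p = 0.0037), and its DNK libraries were the higher ones. Without any 1 library, 1 factor was called higher, and 3, 1, 1 and 2 were called lower without DNK1, DNK2, CtrlK1 and CtrlK2. With total counts as the scale, 5 were called higher and 2 lower.

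Mitochondrial ribosomal proteins are encoded in the nucleus by a separate family. Of 75 tested genes none was called, against 4.22% higher and 4.23% lower of all tested genes. Their median was -0.27, beside -0.17 for the cytosolic family and -0.02 for all tested genes. Negative values were found for 63 of 75 (84%, against 51.7% of all tested genes). At an unadjusted p under 0.05 in edgeR, 0 were higher (against 11.3%) and 7 were lower (9.33%, against 12.6%). DESeq2 called 0 higher (against 7.41%) and 1 lower (1.33%, against 8.35%). Together these genes held 0.114% and 0.117% of counts in DNK against 0.137% and 0.120% in CtrlK, far below the cytosolic family. Genes of ribosome biogenesis were split evenly, with 36 of 71 negative, a median of -0.06, 0 called higher and 2 lower (2.82%, against 4.23% of all tested genes). At an unadjusted p under 0.05 these genes numbered 7 higher and 7 lower (9.86% each, against 11.3% and 12.6% of all tested genes), and DESeq2 called 3 higher and 4 lower (4.23% and 5.63%, against 7.41% and 8.35%). All of these shares of the biogenesis genes were below those of all tested genes. The 2 called were *pes*, a factor of large subunit maturation, at -0.65 ± 0.15 (edgeR adjusted p = 0.047), and *rrp36*, a factor of early rRNA processing, at -1.36 ± 0.31 (edgeR adjusted p = 0.043). Neither was called without any 1 library, with total counts as the scale or with the replicate number as a block. The quartiles of the log2 fold changes were -0.46 and -0.09 for mitochondrial ribosomal proteins and -0.31 and 0.25 for biogenesis genes, against -0.26 and -0.10 for the cytosolic family.

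Among 22 genes of mTORC1 signaling and of regulators of ribosomal protein mRNA, 1 was called in each direction (4.55%, close to the 4.22% higher and 4.23% lower of all tested genes). The list leaned higher, with 15 of 22 positive and a median of 0.13 beside -0.02 for all tested genes. At an unadjusted p under 0.05 in edgeR, 4 were higher (18.2%, against 11.3% of all tested genes) and 1 lower (4.55%, against 12.6%). DESeq2 called 3 higher (13.6%, against 7.41%) and 1 lower (4.55%, against 8.35%). *eif4ebp3l*, which encodes a binding protein that restrains the cap-binding factor eIF4E, had 5045 and 5443 counts in DNK against 2868 and 3245 in CtrlK, a change of 0.69 ± 0.12 (edgeR adjusted p = 0.015). *mycn*, a transcription factor that promotes growth and ribosome production, had 274 and 227 counts in DNK against 725 and 847 in CtrlK, a change of -1.75 ± 0.21 (edgeR adjusted p = 0.0035). The groups were widely separated in both genes, and the list had 0 genes called higher without DNK2 or without CtrlK2, and 1 called lower without any 1 library. *myca*, of the same gene family as *mycn*, had 17.0 and 15.3 CPM in DNK against 13.6 and 12.1 CPM in CtrlK. Its change of 0.34 ± 0.23 went the other way and was not called (edgeR adjusted p = 0.44). *mtor* had 15.6 and 17.9 CPM in DNK against 20.5 and 23.4 CPM in CtrlK without a call (edgeR adjusted p = 0.32). *larp1* had 64 and 45 counts in DNK against 31 and 32 in CtrlK, with a change of 0.68 ± 0.69 (edgeR adjusted p = 0.63).

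**Figure D4:**
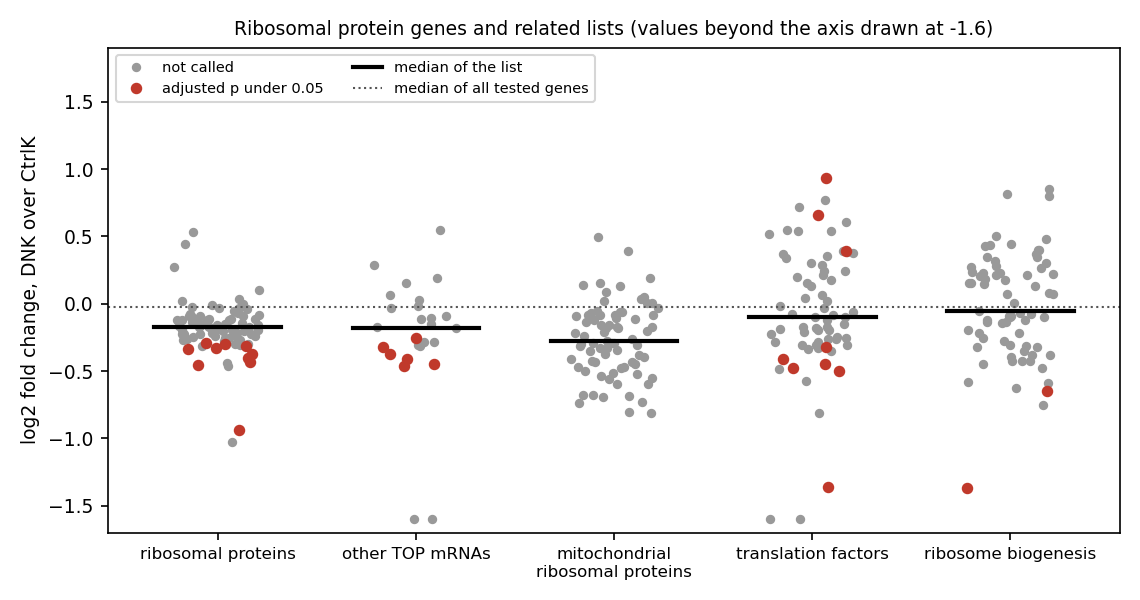
Log2 fold change of DNK over CtrlK (edgeR, TMM) for the tested genes of the ribosomal protein family and of 4 related lists, 1 point per gene, called genes in red, black bars at the list medians and a dotted line at the median of all tested genes (-0.02). The ribosomal protein points form a narrow band around -0.17, the other TOP mRNAs have a median of -0.18, and translation factors and biogenesis genes spread widely on both sides of 0.

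Other contents of the libraries moved with the groups beside these results. For comparison, edgeR called 4.23% of all tested genes lower and 4.22% higher, and DESeq2 called 8.35% lower and 7.41% higher. Negative log2 fold changes were found for 51.7% of all tested genes. Cardiomyocyte markers had negative log2 fold changes in 10 of 10 genes, with none called and none at an unadjusted p under 0.05 in edgeR, 4 called lower by DESeq2, none at 0 in either group and a large gap between replicates. Of 9 endothelial markers, 8 had negative log2 fold changes, 4 were called lower (*kdrl*, *pecam1*, *egfl7* and *aplnra*) and 1 was called higher (*flt1*). With DESeq2 the counts were also 4 lower and 1 higher. Epicardial and fibroblast markers summed to 0.216% and 0.224% of counts in DNK against 0.115% and 0.129% in CtrlK, with *col1a1a*, *col1a2* and *pdgfra* called higher. The other 4 genes of that list stood at 2.22 CPM or less in both DNK libraries, and *tcf21*, *tbx18* and *postnb* had negative log2 fold changes without a call (edgeR adjusted p = 0.39, 0.080 and 0.29), with *tbx18* and *postnb* called lower by DESeq2. Proliferation genes summed to 0.0396% and 0.0432% in DNK against 0.0193% and 0.0274% in CtrlK, with *mcm2*, *mcm5*, *mcm6* and *pcna*, genes of DNA replication, called higher. Of the 12 proliferation genes 5 had negative log2 fold changes, among them *mki67* with 0.206 and 1.18 CPM in DNK against 4.93 and 4.17 CPM in CtrlK (-2.71, edgeR adjusted p = 0.095). Of these 12 genes DESeq2 called 6 higher and 1 lower. Leukocyte markers summed to 0.187% and 0.164% in DNK against 0.166% and 0.183% in CtrlK, with *mpx* at 0 in DNK and *lyz* at 0 in both groups. Of 11 leukocyte markers tested, edgeR called 4 lower and DESeq2 called 6 lower, and neither called any higher. Erythrocyte markers summed to at most 0.00169% in DNK and 0.0197% in CtrlK, with 1 of 6 called lower by edgeR and 4 by DESeq2. Thrombocyte markers summed to at most 0.00858% in DNK and 0.0107% in CtrlK, with *itga2b* at 0 in DNK. Of the 4 thrombocyte markers, 3 were called lower by edgeR and 3 by DESeq2. The nuclear RNA *malat1* took 2.19% and 2.34% of counts in DNK against 1.25% and 1.38% in CtrlK. With the cardiomyocyte, erythrocyte and leukocyte markers taken out of the total, the ribosomal protein share was 7.15% and 7.05% in DNK against 7.45% and 7.81% in CtrlK, and the part of the other cell types, of the endothelial markers and of *malat1* in the ribosomal protein results was not tested.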

How the data were processed

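RNA-seq was analysed in 2 DNK and 2 CtrlK libraries, grouped by their labels (the names of the deposited DNK tables carry DNF in place of DNK, and the labels were followed). From 30 ng of RNA per library, the authors checked reads with FastQC 0.11.9, mapped them with HISAT2 2.2.1 to GRCz11, kept uniquely mapped reads, counted them with featureCounts 2.0.1 and deposited whole-number counts per Ensembl gene without normalization. The strand setting is not given in the sources used here, so overlapping and antisense genes are uncertain. The FPKM filter of the study was replaced by filterByExpr, since exon lengths were not used here.

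For the tests, edgeR 4.0.16 was run on the counts with TMM factors (glmQLFit with robust estimation, glmQLFTest, group as the only term, Benjamini-Hochberg adjustment, threshold 0.05) in R 4.3.3. DESeq2 1.42.0 was an alternative. A second edgeR fit used the summed member counts as library size. Shares and ratios were compared by exact permutation tests (SciPy 1.17.1). The test was checked on simulated counts.

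Symbols came from the table of identifiers and the gene names of the study's supplementary list. For human-style symbols of genes not named from that list, shared by several genes or not, the 25 neighbouring genes on each side in RefSeq GRCz12tu were also used. Of the 85 members, 24 were named from the supplementary list, 48 from the table with neighbouring genes, and 13 from the table alone. No gene was matched under the symbols *rpl27a*, *rpl37a* or *rpl41*, so the family's sum holds no counts under these names.

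The members, gene lists and the rule for named genes were chosen with earlier results of these data known. The named genes are the 8 lowest called members by p, up to 8 called higher, up to 8 called relative to the family, and *rplp0*, *rplp1*, *rplp2*, *rpl5a*, *rpl5b*, *rpl11*, *rpl13a*, *rps6*, *rps14*, *rps19*, *rps27a*, *rpl22*, *rpl22l1*, *rpl7l1*, *rack1*, *faua* and *smarca4a*, apart from genes that are not reported here. Members at 3 counts or fewer in every library would also be named, and there were none. All other genes named were chosen after their values were seen. Replicate libraries of a group correlated at 0.939 in DNK and 0.948 in CtrlK (log2 CPM over tested genes) and differed beyond sampling noise, so each counted as 1 replicate. The alternatives were other scalings and filters, DESeq2, non-robust dispersions, a threshold of 0.01, a replicate block and each library left out.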

Additional observations from a re-analysis of the deposited data

How the results depend on the processing

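The negative median of the ribosomal protein genes and the lower share of counts in DNK kept their direction under every alternative run, while the number of called members did not keep its size. The members called lower numbered 10 at first, 1 with total counts only, 21 with at least 10 counts required in every library, 27 with DESeq2, 0 at an adjusted p under 0.01, and 0 to 3 with 1 library left out. The members called higher numbered 0 at first (2 at an unadjusted p under 0.05), 1 with total counts only, 1 with no filter on low counts and 2 with DESeq2. The median was -0.10 with total counts only and between -0.20 and -0.16 with 1 library left out. The difference in share was -0.723 points without the *mt-* genes and -1.26 points without the 100 other genes of highest count. With 1 library left out it was -0.685 to -0.254 points. As a ratio of DNK to CtrlK mean share, it was 0.938 over all counts. The ratio was 0.910 without the *mt-* genes and 0.892 without the 100 other genes. Relative to the family, the 2 genes called higher and the 1 called lower became 0 and 0 at an adjusted p under 0.01, and 0 higher and 0 to 1 lower with 1 library left out. Over all genes, 723 higher and 726 lower became 1315 and 1775 with no filter, 1271 and 1432 with DESeq2, 271 and 223 at an adjusted p under 0.01, and 319 to 362 and 291 to 488 with 1 library left out. With at least 10 counts required in every library, 841 genes were called higher and 864 lower. The number of genes tested in that fit is not given here. Apart from the stricter threshold, the shift by scaling, fewer libraries or other genes in the fit, the cause of these differences was not tested. Of the 83 tested members, 9 had the other sign under at least 1 alternative, 8 of them with total counts only, 4 without CtrlK1 and 2 each without DNK1 or DNK2, and none of the 9 was called in any fit on the scale of all genes. Among the named genes, *rplp0* was at 0.0231, *rplp2* at 0.0651 and *rpl5a* at 0.0505 with total counts only, and *rplp2* was at 0.00606 with upper quartile factors and between -0.0177 and 0.00562 with 1 library left out.

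Both groups use the numbers 1 and 2 in the labels, for different fish. Same-numbered libraries deviated from their group means with a correlation of 0.090 over all genes and 0.254 over members. With 2 libraries per group both pairs must give the same correlation, so each of these values is 1 observation. With the replicate number as a block, 15 members were called lower and 0 higher, and relative to the family 2 were called higher and 2 lower, while the 2 calls among ribosome biogenesis genes were lost. Over all genes the block gave 747 higher and 895 lower. Corrections for GC content were not run. With 2 libraries per group, the exact test of a single value cannot reach the threshold, and members with few counts carry wide errors.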
